A study of Mus musculus with 18 samples.

Results

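The 6 genes Serpina3m, Spink2, Ly75, Kbtbd11, Itm2a and Igfbp2 were read by 8 of the 41174 non-control probes on a mouse 2-colour array. They were chosen by measured values: each differs between Dnmt3ab-deficient induced pluripotent stem cells (iPSC) and V6.5 embryonic stem cells (ESC). That difference is therefore given below as a description, without a test. The probes were taken by the gene name in the array files and each was kept apart, since Ly75 and Kbtbd11 have 2 probes each.

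The array study compared RNA of iPSC that lack the DNA methyltransferases Dnmt3a and Dnmt3b with control iPSC, with ESC and with mouse embryonic fibroblasts (MEF), on 18 arrays of 36 channels. Deficient iPSC were 3 clones, 8, A6 and B2, each read once beside V6.5 ESC and once beside MEF. The same 3 clones were read again, described as showing some signs of differentiation, on 12 arrays beside control iPSC lines 3, 4, 5 and 6. The labels say that the differentiating channels were left out of the submitters' own statistics. All iPSC had been grown on irradiated MEF feeders and moved to gelatin for 1 or 2 passages before RNA was taken. The labels give neither the alleles, the strain, the reprogramming factors nor the donor cells, and each deficient line is 1 clone. V6.5, a widely used ESC line of hybrid strain, and MEF were 1 RNA each, always in Cy5 and always in Cy3, so neither has a spread of its own. Separate cultures are not stated within a line, and the cell line was taken as the replicate.

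Dnmt3a and Dnmt3b place methyl groups on cytosines of CpG dinucleotides that carry none, and CpG-rich promoters are mostly kept unmethylated in pluripotent cells. Serpina3m and Spink2 encode inhibitors of serine proteases, the first from a cluster of closely related mouse genes and the second a small Kazal-type inhibitor known from testis. Ly75 (DEC-205) is an endocytic receptor of the mannose receptor family, known from dendritic cells and thymic epithelium. Kbtbd11 has BTB and kelch domains, Itm2a is an X-linked membrane protein with a BRICHOS domain, and Igfbp2 is a secreted protein that binds insulin-like growth factors.

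Promoters of the genes are shown because the CpG sites in them are the substrate of the enzymes that the clones lack. RefSeq promoters (GRCm38.p6, 250 bases before to 50 after a gene's start) were matched for 4 of the 6 genes: Spink2, Ly75, Itm2a and Igfbp2. Serpina3m and Kbtbd11 are named only. For Spink2 and Igfbp2, which have several starts in the table, the start farthest upstream is shown. The sequences run 5′ to 3′ on the strand of the gene, and capitals mark each CG. They lie at chr5:77211422-77211721 (minus strand, Spink2), chr2:60383224-60383523 (minus strand, Ly75), chrX:107403311-107403610 (minus strand, Itm2a) and chr1:72824230-72824529 (plus strand, Igfbp2).
Spink2: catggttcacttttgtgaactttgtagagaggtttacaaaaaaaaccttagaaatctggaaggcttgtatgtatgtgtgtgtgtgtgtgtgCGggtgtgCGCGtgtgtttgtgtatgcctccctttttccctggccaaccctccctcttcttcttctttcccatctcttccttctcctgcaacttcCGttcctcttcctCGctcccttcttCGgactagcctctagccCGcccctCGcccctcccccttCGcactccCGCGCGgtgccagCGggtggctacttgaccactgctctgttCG
Ly75: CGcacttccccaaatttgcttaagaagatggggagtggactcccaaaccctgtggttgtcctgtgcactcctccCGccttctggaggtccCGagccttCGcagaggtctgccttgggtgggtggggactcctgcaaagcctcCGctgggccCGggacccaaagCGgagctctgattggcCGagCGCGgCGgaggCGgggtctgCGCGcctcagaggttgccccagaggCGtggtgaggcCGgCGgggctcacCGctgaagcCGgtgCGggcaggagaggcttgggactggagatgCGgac
Itm2a: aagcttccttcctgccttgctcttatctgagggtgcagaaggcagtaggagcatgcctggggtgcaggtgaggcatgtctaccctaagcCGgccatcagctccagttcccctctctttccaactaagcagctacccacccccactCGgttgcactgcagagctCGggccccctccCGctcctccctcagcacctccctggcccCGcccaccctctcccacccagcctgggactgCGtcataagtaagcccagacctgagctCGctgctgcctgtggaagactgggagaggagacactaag
Igfbp2: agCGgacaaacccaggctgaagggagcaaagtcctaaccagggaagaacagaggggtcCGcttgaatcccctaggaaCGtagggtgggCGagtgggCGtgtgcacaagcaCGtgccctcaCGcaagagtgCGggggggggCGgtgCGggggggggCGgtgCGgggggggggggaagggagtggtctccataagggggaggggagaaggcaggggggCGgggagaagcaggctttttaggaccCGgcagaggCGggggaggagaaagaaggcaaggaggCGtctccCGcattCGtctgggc
The letters CG, which read the same on both strands, occurred in 94.57% of the 32851 promoters in the table, with a median of 7 per promoter. The Ly75 promoter held 21 and the Igfbp2 promoter 18, and 24.8% and 29.7% of all promoters held as many or more. The Spink2 promoter shown held 14, a count reached by 36.3% of promoters. The other starts of Spink2 held 9 and 13, reached by 45.8% and 37.9% of promoters, and the other start of Igfbp2 held 14. That of Itm2a held 7, the median. Methylation itself was not measured on these arrays.

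Each probe was a single stretch of the gene, and positions are those of the array files (mouse build mm7). The Serpina3m probe A_51_P358012 lay at chr12:101888454-101888512 and the Spink2 probe A_51_P130115 at chr5:77136506-77136565. Ly75 was read by A_51_P407351 (chr2:60222854-60222913) and by A_52_P546030 (chr2:60269793-60269852), which the files place 46.9 kb apart and assign to different transcripts. Kbtbd11 was read by A_52_P180728 (chr8:15003552-15003611) and A_52_P570240 (chr8:15007303-15007362), 3.75 kb apart on 1 cDNA that the files annotate as having an apparent retained intron. The Itm2a probe A_51_P516870 lay at chrX:102724936-102724995 and the Igfbp2 probe A_51_P423308 at chr1:73093964-73094023. All 8 probes were well above background in all 36 channels and none was saturated.

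Across the series, channels had median net signals between 122.9 and 264.4 on the first of 2 scan days and between 88.6 and 312.6 on the second. The first day held the deficient iPSC, V6.5 ESC and MEF on 6 arrays, and the second held the differentiating clones and the control iPSC on 12. Deficient and control iPSC thus shared no slide and no scan day, and scan day and genotype cannot be told apart between them. The Dnmt3a probe A_52_P169048 fell by 2.74 ± 0.309 log2 units in the differentiating clones against control iPSC (SE, limma adjusted p = 0.0309). The Dnmt3b probe A_51_P341540 did not pass the test (-0.17, adjusted p = 0.875). Whether either probe lies in a deleted part is not stated, so the Dnmt3b probe checks nothing.

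One array stood apart and goes against its labels. On the array labelled differentiating clone 8 and control line 5, the signals of both channels correlated at 0.996 over the probes, against 0.982 to 0.989 on the other 11 arrays with control iPSC. Its Dnmt3a log2 ratio of clone over control was 0.08, whereas the other 11 gave -3.24 to -2.66, and its median ratio over 13 endoderm markers was -0.15, whereas the others gave 0.87 to 3.49. In both of its channels the Dnmt3a level lay between those of the clones and the control lines, at 10.69 in the channel labelled clone 8 and 10.61 in the channel labelled control line 5. The cause was not tested. Tests against control iPSC are therefore given with all arrays and again without this array. Single levels are from all arrays unless marked. Without it the level of control line 5 was 10.71 for Serpina3m, 10.34 for Ly75 A_51_P407351, 11.81 for Itm2a and 15.66 for Igfbp2, and with it 11.01, 9.78, 11.26 and 15.54.

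Serpina3m and Spink2 were higher in every iPSC RNA than in V6.5 ESC. Levels below are log2 signals on a scale shared by all arrays, 1 value per RNA from a fit of all 36 channels, and they compare RNAs for 1 probe, not probes with each other. Serpina3m reached 12.29, 13.22 and 13.03 in deficient clones 8, A6 and B2, and 12.14, 13.61 and 12.61 in the same clones with signs of differentiation. Control lines 3, 4, 5 and 6 had 10.80, 11.55, 11.01 and 12.99, V6.5 ESC 9.92 and MEF 9.66. Control line 6 lay among the deficient clones and well above the other control lines, so that the groups overlap.

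Spink2 followed a like order with another exception. It was 10.02, 12.13 and 11.92 in deficient clones 8, A6 and B2, and 9.56, 10.95 and 10.96 in the differentiating clones. The control lines had 9.53, 9.85, 9.69 and 9.23, V6.5 ESC 8.26 and MEF 7.96. Clone 8 was the lowest clone in both states, and with signs of differentiation it lay within the control range. Control line 6, the highest control line in Serpina3m, was the lowest in Spink2.

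Within arrays, the 2 inhibitors were brighter in the clone than in V6.5 ESC on all 3 arrays. The Serpina3m log2 ratio of clone over V6.5 ESC was 2.40 for clone 8, 3.21 for A6 and 3.07 for B2. For Spink2 it was 1.72, 3.87 and 3.81. In the differences from V6.5 ESC given with an SE, the SE pools the spread of all 18 arrays, of which 3 hold V6.5 ESC. With a dye term, the mean differences were 2.76 ± 0.629 for Serpina3m and 3.09 ± 0.545 for Spink2, 6.76-fold and 8.51-fold higher signals. Without the array that stood apart, they were 2.73 and 3.02.

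The other 4 genes lay below V6.5 ESC. Ly75 (A_51_P407351) was 10.77, 10.004 and 9.75 in deficient clones 8, A6 and B2, 9.23, 9.47 and 9.70 in the differentiating clones, and 10.25, 10.12, 9.78 and 10.31 in control lines 3 to 6. V6.5 ESC stood at 12.45, and MEF at 9.82 lay among the iPSC. The iPSC spanned 9.23 to 10.77, and the gap from the highest of them, deficient clone 8, to V6.5 ESC was 1.68.

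The second Ly75 probe, A_52_P546030, gave the same side with a smaller step. Its level ran from 7.21 to 7.41 in deficient clones, from 7.43 to 7.58 in differentiating clones and from 7.36 to 7.60 in control lines, and it was 8.00 in V6.5 ESC and 7.39 in MEF. On the 3 arrays the net signal of this probe was only 98.0, 75.8 and 85.2 in clones 8, A6 and B2, against 313.5, 297.8 and 296.1 in V6.5 ESC, so it is a dim probe near the offset of 50 that the background correction adds. The log2 differences from V6.5 ESC were -2.26 ± 0.266 for the first probe and -0.72 ± 0.0926 for the second (SE pooled over 18 arrays). Over the 12 RNAs the 2 probes correlated at 0.70, a description that rests largely on V6.5 ESC.

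Kbtbd11 depended on the probe. With A_52_P570240, the deficient clones had net signals of 242, 244 and 222 for 8, A6 and B2, while V6.5 ESC on the same arrays had 4066, 4089 and 3941. The fitted levels were 8.36, 8.44 and 8.40 in those clones, 8.48, 8.06 and 8.04 in the differentiating clones, and 9.52, 9.11, 9.32 and 8.17 in control lines 3 to 6. V6.5 ESC stood at 11.25, above all 10 iPSC levels by at least 1.73, and MEF at 8.27.

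With A_52_P180728, 3.75 kb away, V6.5 ESC was not set apart. The deficient clones had 8.53, 8.83 and 8.95, the differentiating clones 8.32, 7.87 and 8.00, and the control lines 9.33, 9.11, 9.06 and 8.19. V6.5 ESC at 9.17 lay below control line 3, and MEF was at 7.93. The log2 difference of deficient clones from V6.5 ESC was -2.73 ± 0.314 with A_52_P570240, a 6.65-fold lower signal. With A_52_P180728 it was -0.33 ± 0.301 (both SE pooled over 18 arrays). Before the dyes were balanced, A_52_P180728 had net signals of 274, 295 and 301 in clones 8, A6 and B2, against 783, 749 and 782 in V6.5 ESC.

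A further probe that RefSeq names Kbtbd11, under another name in the array files (A_52_P394448), lies 2.51 kb from A_52_P180728 on the lower side. It ranged from 7.52 to 7.57 in deficient clones, from 7.54 to 7.75 in differentiating clones and from 7.64 to 7.88 in control lines. V6.5 ESC at 7.55 was inside that range. Of 3 probes at the locus, 1 separated V6.5 ESC from every iPSC. With A_52_P180728 and A_52_P570240 alike, control line 6 stood below the other control lines and lay among the differentiating clones.

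Itm2a and Igfbp2 formed a graded order. Itm2a was 10.14, 10.62 and 10.91 in deficient clones 8, A6 and B2, and 10.58, 10.65 and 10.85 in the differentiating clones. Control lines had 11.73, 11.64, 11.26 and 11.84, V6.5 ESC 12.03, and MEF 13.84. Differentiating clone 8 was at 10.41 in place of 10.58 without the array that stood apart.

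Igfbp2 reached 15.21, 14.94 and 15.11 in deficient clones 8, A6 and B2, and 15.33, 15.29 and 15.12 in the differentiating clones. The control lines had 15.78, 15.58, 15.54 and 15.83, V6.5 ESC 16.19 and MEF 15.56. For both genes no clone reached the lowest control line and no control line reached V6.5 ESC. Against V6.5 ESC on the same arrays, Itm2a differed by -1.47 ± 0.25 and Igfbp2 by -1.11 ± 0.126 (SE pooled over 18 arrays), 2.77-fold and 2.16-fold lower signals.

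**Figure D1:**
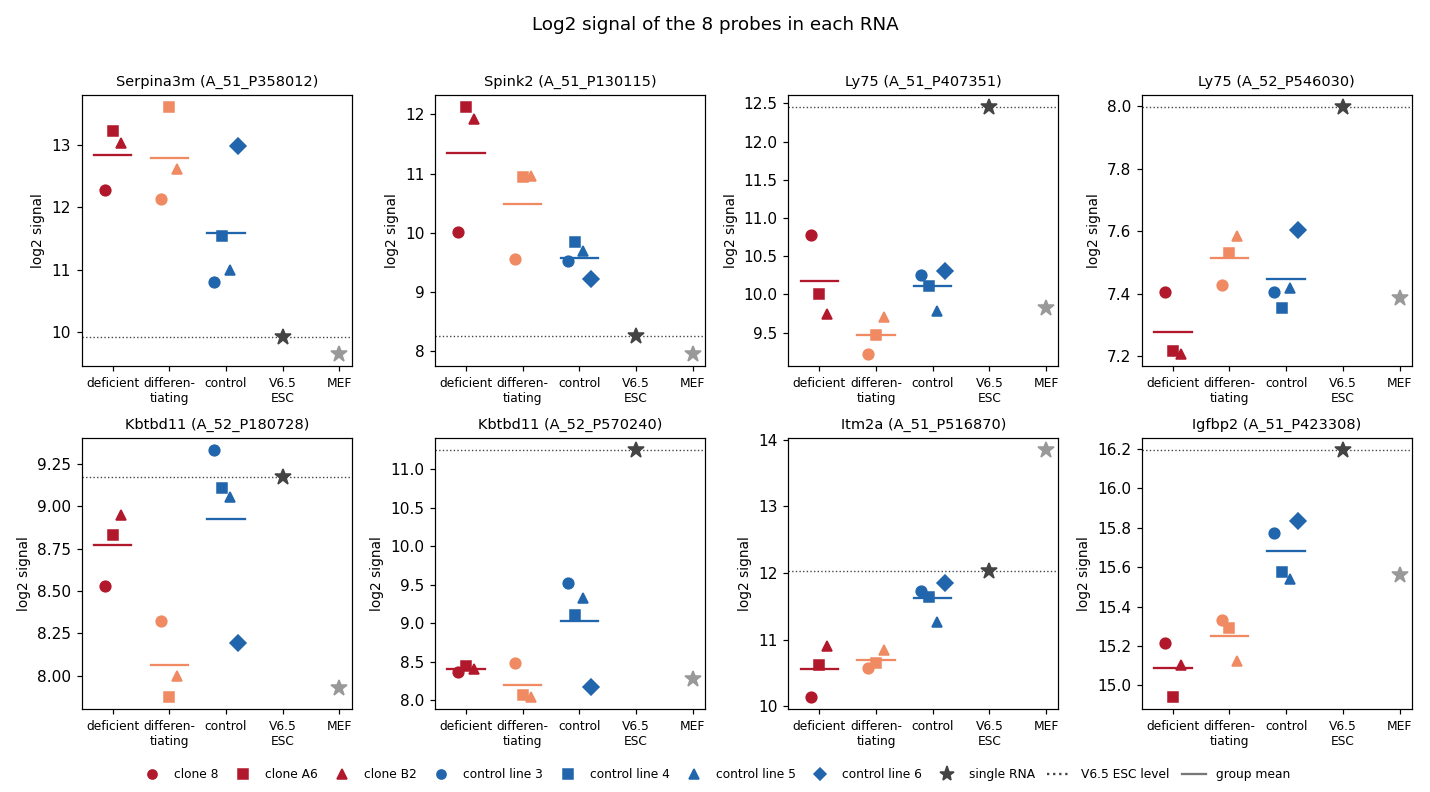
Log2 signal (y axis) of each of the 8 probes in deficient iPSC, differentiating deficient clones, control iPSC, V6.5 ESC and MEF. Points are RNAs, shapes name the clone or line, bars are group means and the dotted line is the V6.5 ESC level, which lies outside all 10 iPSC points in every panel except Kbtbd11 A_52_P180728, where control line 3 is above it.

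Differences from V6.5 ESC shared by all iPSC were then counted. V6.5 ESC lay outside the range of all 10 iPSC levels for 7 of the 8 probes, below them for Serpina3m and Spink2 and above them for both Ly75 probes, Kbtbd11 A_52_P570240, Itm2a and Igfbp2. Of all probes, 32.1% had V6.5 ESC outside that range, 15.8% with V6.5 ESC above and 16.3% below it (31.1% without the array that stood apart, which left the 7 probes outside). By limma at an adjusted p under 0.05, 5.33% of all probes were called higher and 8.21% lower in deficient clones than in V6.5 ESC, the contrast behind the choice of members, from which nothing is read. All 4 control lines lay on the same side of V6.5 ESC as the deficient clones for those 7 probes. The members were chosen on the level of this 1 V6.5 ESC RNA, against which the control lines are set too, so that their side is a description and not independent of the choice. Control iPSC and V6.5 ESC were read on different scan days, so scan day cannot be told apart from that step.

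The control lines accounted for unequal shares of each step. The mean of the 4 control lines minus V6.5 ESC was -2.34 for Ly75 A_51_P407351, next to -2.28 for the deficient clones. For Kbtbd11 A_52_P570240 these differences were -2.84 in deficient clones and -2.22 in control lines. For Serpina3m they were 2.92 in deficient clones and 1.67 in control lines, and for Spink2 3.09 and 1.31.

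In Itm2a and Igfbp2 the control lines lay nearer to V6.5 ESC. The mean difference from V6.5 ESC was -1.48 in deficient clones and -0.41 in control lines for Itm2a, and -1.11 and -0.51 for Igfbp2. The gap between V6.5 ESC and the nearest iPSC level was 1.73 for Kbtbd11 A_52_P570240, 1.68 for Ly75 A_51_P407351, 0.96 for Spink2 and 0.88 for Serpina3m, and 0.36 for Igfbp2. It was narrowest for Itm2a, at 0.19, and at 0.05 without the array that stood apart. With limma's own setting of the background correction the gaps of Spink2 and Itm2a were 0. V6.5 ESC is 1 RNA with no spread of its own, and no test was made of these gaps.

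**Figure D2:**
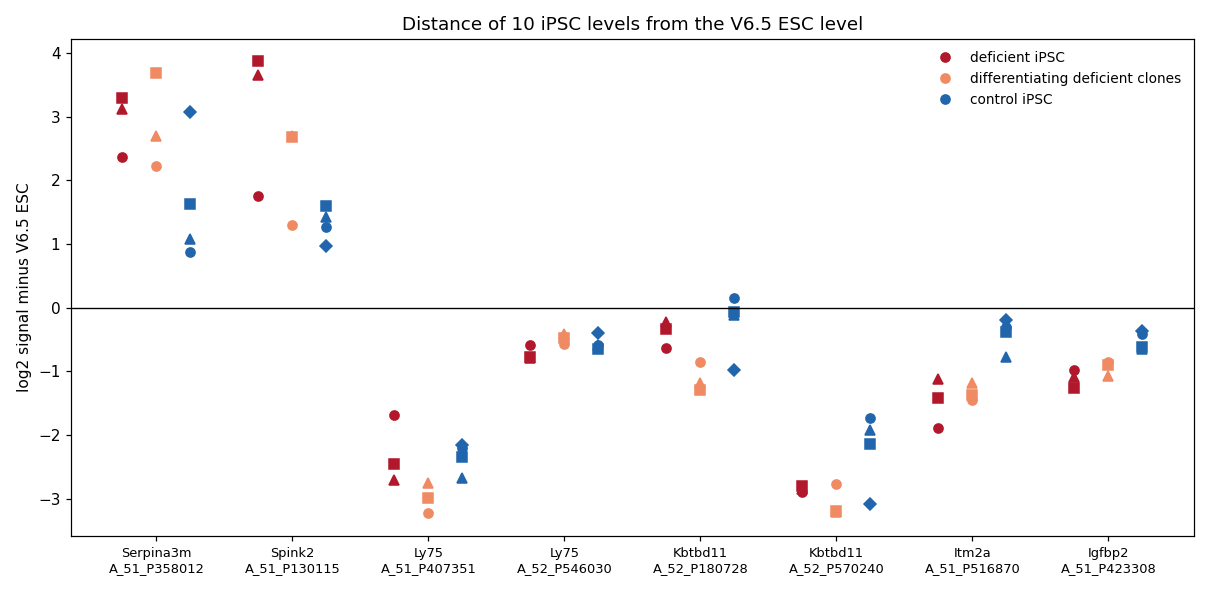
Difference in log2 signal from V6.5 ESC (y axis) of 3 deficient iPSC, 3 differentiating clones and 4 control iPSC levels for each probe; each point is 1 RNA. Serpina3m and Spink2 points are all above 0, and those of both Ly75 probes, Kbtbd11 A_52_P570240, Itm2a and Igfbp2 all below it.

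Differentiating deficient clones were tested against control iPSC on 12 arrays, where both were read on the same slides. Only the deficient RNAs there were described as showing signs of differentiation, so genotype and differentiation cannot be told apart. The contrasts on these arrays did not choose the members, though the clones are the same lines that did. Itm2a was the only 1 of the 8 probes called: it fell by 0.92 ± 0.144 (SE, 3 clones against 4 lines), a 1.90-fold lower signal, with a limma adjusted p of 0.0334 over all probes. The share called among all probes was 4.54%, 2.08% higher and 2.46% lower. Without the array that stood apart, 3 of the 8 probes were called, where 9.28% of all probes were (4.44% higher and 4.85% lower): Itm2a at -0.99 ± 0.142 (limma adjusted p = 0.0114), Igfbp2 at -0.46 ± 0.0708 (limma adjusted p = 0.0141) and Ly75 A_51_P407351 at -0.70 ± 0.162 (limma adjusted p = 0.0448).

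With all arrays, Igfbp2 differed by -0.43 ± 0.0914 and missed the threshold (limma adjusted p = 0.0509). It passed with limma's own setting of the background correction (limma adjusted p = 0.0492). Ly75 A_51_P407351 differed by -0.65 ± 0.158 (limma adjusted p = 0.0688). Levels of clones and control lines did not overlap for these 3 probes, of Ly75, Itm2a and Igfbp2, and the same held for 19.7% of all probes. The second Ly75 probe differed by 0.07 ± 0.0707 (95% interval -0.10 to 0.24).

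Itm2a lost its call in 5 of the 7 fits that leave out 1 line. Those were the fits without differentiating clone 8, A6 or B2 and without control line 3 or 4, with limma adjusted p from 0.0503 to 0.148. In the fits without A6, B2, control line 3 or control line 4, no probe on the array was called. The lost call there is thus not particular to Itm2a. Over all 7 the differences ran from -1.04 to -0.85. Within arrays, Itm2a was lower in the clone on 11 of 12 arrays, and the exception, at 0.17, was the array that stood apart. The ratios of A6 and B2 ran from -1.01 to -0.65, and the other 3 of clone 8 were -1.47, -1.21 and -1.20.

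Serpina3m, Spink2 and Kbtbd11 did not pass this test. Serpina3m differed by 1.20 ± 0.595 (95% interval -0.22 to 2.62, limma adjusted p = 0.31) and Spink2 by 0.91 ± 0.365 (0.04 to 1.78, limma adjusted p = 0.206). Kbtbd11 differed by -0.86 ± 0.275 with A_52_P180728 (limma adjusted p = 0.128) and by -0.84 ± 0.324 with A_52_P570240 (limma adjusted p = 0.194). Without the array that stood apart these differences were 1.22, 0.92, -0.89 and -0.85, with limma adjusted p of 0.29, 0.175, 0.103 and 0.168. Here the 2 Kbtbd11 probes gave differences of like size, unlike against V6.5 ESC.

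Single lines moved these values, and the number of calls over the array moved too. Without control line 6, Serpina3m differed by 1.67 (limma adjusted p = 0.0416). Kbtbd11 differed there by -1.10 with A_52_P180728 (limma adjusted p = 0.00964) and by -1.12 with A_52_P570240 (limma adjusted p = 0.0116). That fit called 5213 of 36965 probes, against 1677 with all lines, so the gain in calls was not particular to these probes. Beside control line 6, Kbtbd11 A_52_P570240 gave ratios of 0.15, 0.04 and -0.11 for clones 8, A6 and B2, and beside lines 3 to 5 it gave -1.52 to -0.59. Spink2 turned on clone 8, whose mean ratio over its 4 arrays was 0.02, next to 1.38 for A6 and 1.40 for B2. Without clone 8, Spink2 differed by 1.38 (limma adjusted p = 0.0246), in a fit that called 1878 of 36965 probes.

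Marker sums moved with these lines. Each is the log2 of the summed signals of a list, so its brightest markers weigh most. Among these, Stra8 of the germ cell list had a mean of 14.95 in deficient clones, and Dppa5a of the pluripotency list 17.62. The log2 of the summed signal of 8 of 8 germ cell markers was 15.65 to 15.78 in deficient clones and 13.78 to 15.27 in differentiating clones. It was 15.31 in control line 6 and 13.29 to 13.77 in control lines 3 to 5. For 13 of 13 fibroblast and feeder markers it was 14.91 to 15.47 in the differentiating clones and 15.56 in control line 6. It was 16.14 to 16.51 in the other control lines, 15.06 in V6.5 ESC and 20.04 in MEF. Itm2a was highest in MEF too, but it did not follow this sum elsewhere. V6.5 ESC, at 12.03, had more Itm2a than any iPSC, and control line 6, at 11.84, had the most of the control lines. The log2 sum of 13 of 13 endoderm markers was 15.38 to 16.53 in the differentiating clones and 13.51 to 14.68 in control lines. By limma, 7 of these 13 were called higher, where 2.08% of all probes were. Of the 13 fibroblast and feeder markers 1 was called lower, where 2.46% of all probes were. None of the 8 germ cell markers was called, and 1 of 8 trophoblast markers was called lower. The trophoblast sum was 14.03 to 14.44 in deficient clones, 15.37 to 16.26 in differentiating clones, 15.93 to 16.86 in control lines and 14.15 in V6.5 ESC. In control lines its brightest markers were the keratins Krt18 and Krt8, with means of 15.84 and 14.62, against 13.16 and 11.46 in deficient clones. Tfap2c (12.14 and 12.61), Hand1 (6.70 and 7.23) and Eomes (7.83 and 8.09) went the other way between control lines and deficient clones. Cdx2, Elf5 and Gata3 differed little. The sum of 10 pluripotency markers was 17.84 to 18.55 over all iPSC and 19.10 in V6.5 ESC. With the array that stood apart left out, 7 endoderm markers were again called higher, where 4.44% of all probes were. In that fit 5 fibroblast and feeder markers were called lower, where 4.85% of all probes were. The endoderm sum was then 15.08 to 17.17 in differentiating clones and 13.66 to 14.05 in control lines. The part of these markers in the results was not tested. In bulk RNA fewer cells of a type and less RNA per cell cannot be told apart.

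**Figure D3:**
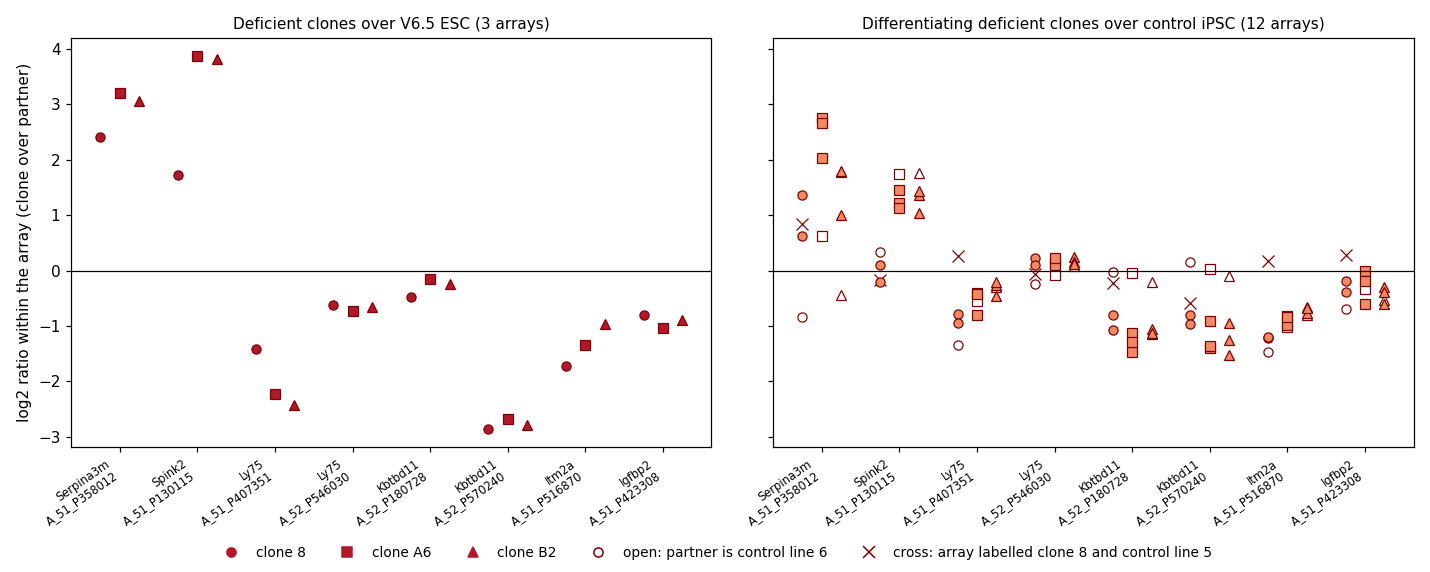
Log2 ratio within each array (y axis), at left of deficient clones over V6.5 ESC and at right of differentiating clones over control iPSC. Each point is 1 array, shapes name the clone, open points have control line 6 as partner and crosses are the array labelled clone 8 and control line 5, whose Ly75 A_51_P407351, Itm2a and Igfbp2 points are the only ones above 0 for those probes.

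The deficient iPSC as read beside MEF were set against control iPSC in a fit without the V6.5 ESC arrays. The arrays that chose the members did not enter. The clones are still those on which the members were chosen, so the test is not independent of that choice. Of the 8 probes 3 were called, where 48% of all probes were (18.1% higher and 29.9% lower). Spink2 rose by 1.75 ± 0.453, a 3.36-fold higher signal (SE, 3 clones against 4 lines; limma adjusted p = 0.0169). Itm2a fell by 0.98 ± 0.203 (limma adjusted p = 0.00689) and Igfbp2 fell by 0.47 ± 0.101 (limma adjusted p = 0.00816). The members were thus called no more often than probes at large, and scan day shares the split.

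For Itm2a and Igfbp2 these differences, with arrays brought to a common scale, were close to those of the differentiating clones. Without that scaling, which this comparison across scan days needs most, Itm2a was at -0.60 in deficient clones and -0.93 in differentiating clones, and Igfbp2 at -0.34 and -0.44. Without the array that stood apart, Itm2a was at -1.17, Igfbp2 at -0.47 and Spink2 at 1.72, all 3 still called, where 48.7% of all probes were (18.6% higher and 30.1% lower). Both comparisons use the same 4 control lines, so their likeness is not independent. Spink2 lost its call without clone A6 (1.35, limma adjusted p = 0.0573) and without clone B2 (1.54, limma adjusted p = 0.0653). Levels of deficient clones and control lines did not overlap for Spink2, Itm2a and Igfbp2, as for 52.3% of all probes.

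The remaining probes were not called between deficient and control iPSC. Serpina3m differed by 1.22 ± 0.537 (limma adjusted p = 0.099), and by 1.69 without control line 6 (limma adjusted p = 0.00318). Kbtbd11 A_52_P570240 differed by -0.65 ± 0.299 (limma adjusted p = 0.113), and by -0.93 without control line 6 (limma adjusted p = 5.2e-04). Kbtbd11 A_52_P180728 was at -0.06 ± 0.28 and Ly75 A_51_P407351 at 0.14 ± 0.254, with 95% intervals of -0.71 to 0.60 and -0.45 to 0.74. Without the array that stood apart, Serpina3m was at 1.36, Kbtbd11 A_52_P570240 at -0.60, Kbtbd11 A_52_P180728 at -0.12 and Ly75 A_51_P407351 at -0.10, and none was called. The second Ly75 probe was at -0.24 with all arrays (limma adjusted p = 0.0797) and at -0.20 without that array.

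Against MEF on the same arrays, the deficient clones split the genes another way. They are the clones on which the members were chosen, so these calls are not independent of that choice. Of the 8 probes 5 were called, 3 higher and 2 lower, where 59.6% of all probes were (28.6% higher and 31.1% lower). Serpina3m rose by 3.35 ± 0.629 (limma adjusted p = 1.8e-04) and Spink2 by 3.40 ± 0.545 (limma adjusted p = 3.7e-05), 10.2-fold and 10.5-fold higher signals. Kbtbd11 A_52_P180728 rose by 0.77 ± 0.301 (limma adjusted p = 0.036), a call lost without the array of clone B2 (limma adjusted p = 0.171) or of A6 (limma adjusted p = 0.0756).

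Itm2a and Igfbp2 were lower in the deficient clones than in MEF. Itm2a fell by 3.29 ± 0.25 (limma adjusted p = 4.3e-09), a 9.80-fold lower signal, and Igfbp2 fell by 0.47 ± 0.126 (limma adjusted p = 0.00382). Both Ly75 probes (0.34 and -0.11) and Kbtbd11 A_52_P570240 (0.02 ± 0.314) did not pass, with limma adjusted p of 0.292, 0.31 and 0.963. MEF is 1 RNA in 1 dye, and the SE pools the spread of all 18 arrays.

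**Figure D4:**
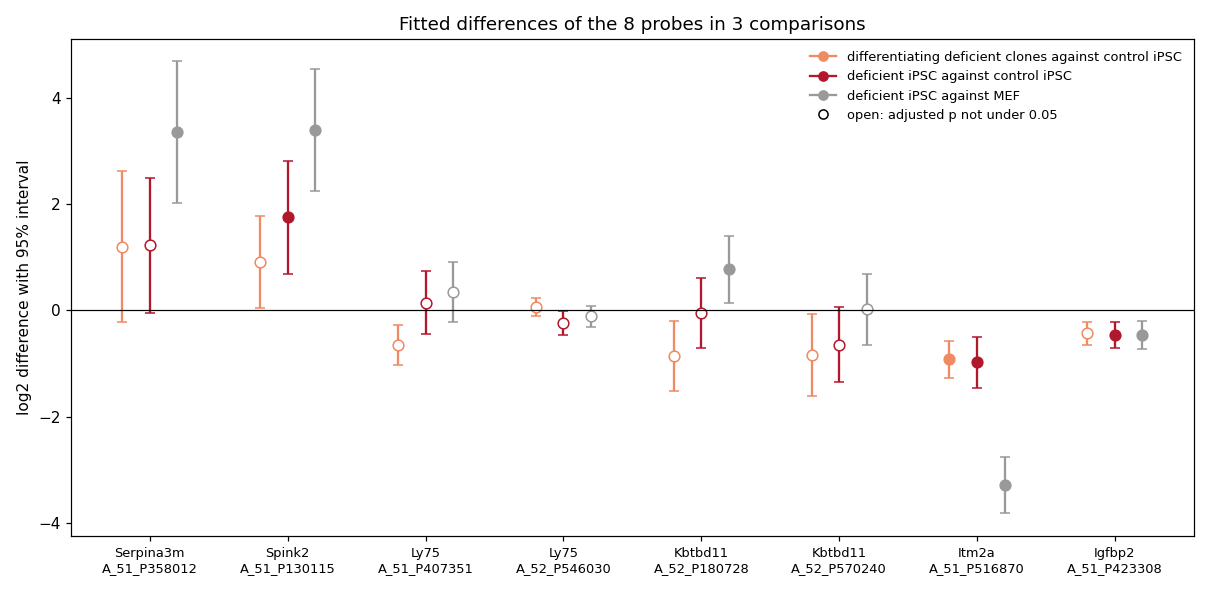
Fitted log2 difference with its 95% interval (y axis) for each probe in the 3 tested comparisons; filled points passed an adjusted p of 0.05. Itm2a is the only probe with all 3 points filled, and its point against MEF, at -3.29, is the lowest.

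The relatives of each gene behaved unevenly. Of 7 measured genes of the Serpina3 cluster, none passed the test between differentiating clones and control iPSC, with or without the array that stood apart. By level, Serpina3c and Serpina3k followed Serpina3m. Among 5634 named probes that varied, they were the most alike over the 12 RNAs (Pearson r = 0.997 and 0.974), followed by 1700057H21Rik (0.955). Serpina3c ran from 9.59 to 10.27 in deficient clones, from 9.32 to 10.45 in differentiating clones and from 8.32 to 10.105 in control lines, and was 7.62 in V6.5 ESC. A second Serpina3k probe did not follow it, at 0.08 from V6.5 ESC in deficient clones, where the first was at 1.37. These genes are close copies, and whether their probes take up each other's RNA is uncertain. Serpina3g and Serpina3n lie near Serpina3m too (152.3 kb and 19.6 kb away) and differed from V6.5 ESC by only 0.22 and 0.13 in deficient clones, against 2.76 for Serpina3m.

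Among the relatives of the other genes, calls between differentiating clones and control iPSC were few. None of the 3 measured Spink genes passed, and all 3 stood within 0.11 of V6.5 ESC in deficient clones (-0.11 for Spink4, -0.05 for Spink5 and -0.09 for Spink6). None of the mannose receptor family passed: Mrc1 differed by -0.10, Mrc2 by -0.75 and Pla2r1 by -0.14. Of 7 Kbtbd genes 1 fell, Kbtbd2 (-0.33, limma adjusted p = 0.0416), and neither Itm2b (-0.03) nor Itm2c (-0.01) passed. Kbtbd2 was not called without the array that stood apart (-0.35, limma adjusted p = 0.0827), while Mrc2 then was (-0.77, limma adjusted p = 0.0425).

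The calls of insulin-like growth factor binding proteins differed in direction between the comparisons, and some turned on which arrays entered the fit. Of 6 measured, 3 fell and none rose in the differentiating clones against control iPSC, where 2.46% of all probes fell: Igfbp3 by 1.86 (limma adjusted p = 0.0309), Igfbp5 by 0.42 (limma adjusted p = 0.0371) and Igfbp6 by 0.57 (limma adjusted p = 0.0465). The median over the 6 was -0.50, next to a median of 0.00 over all probes. The same 3 were called without the array that stood apart. In deficient iPSC against control iPSC, across scan days, 4 of the 6 rose and 1 fell, with a median of 0.68, where 18.1% of all probes rose and 29.9% fell. There Igfbp4 rose by 1.43 (limma adjusted p = 4.6e-04), Igfbp6 by 0.80 (limma adjusted p = 8.1e-04) and Igfbp3 fell by 1.60 (limma adjusted p = 0.00356). That fit left out the V6.5 ESC arrays. In the levels from all arrays, Igfbp6 had means of 8.80 in deficient clones and 9.26 in control lines, the other direction. The same held for Igfbp7 (13.28 and 13.64). Igfbp4 (9.09 and 8.00) and Igfbp1 (6.73 and 6.27) stayed higher, but Igfbp1 was well above background in only 16 of 36 channels. Igfbp3 differed by 0.54 from V6.5 ESC in deficient clones, the other side from Igfbp2 at -1.11. None of the 7 measured ligands and receptors of the pathway passed between differentiating clones and control iPSC, among them Igf2 (-0.76) and Igf1r (-0.38). With that array left out, Igf2 was called lower (-0.76, limma adjusted p = 0.0366) and Igf2r higher (0.31, limma adjusted p = 0.0403).

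Genes near the members in the genome were read for the same differences. Cd302, a C-type lectin gene whose probe lies 40.1 kb from the nearer Ly75 probe, differed from V6.5 ESC by -1.07 in deficient clones. It ran from 8.23 to 8.40 in deficient clones, from 8.63 to 8.75 in differentiating clones and from 8.78 to 9.03 in control lines, against 9.37 in V6.5 ESC. Baz2b, a chromatin protein gene on the same side of Ly75 at 392.8 kb, was the gene most like Ly75 over the 12 RNAs (r = 0.953), at 8.36 to 9.43 in all iPSC and 10.54 in V6.5 ESC. The Marchf7 probes, 44.1 to 48.7 kb from the same Ly75 probe, differed by only -0.24 to 0.08.

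The 2 Igfbp5 probes lie 6.15 and 8.69 kb from the Igfbp2 probe and disagreed. The nearer one differed by 0.48 in deficient clones, where Igfbp2 differed by -1.11. Against control iPSC in the differentiating clones it stood at -0.42 and Igfbp2 at -0.43. The farther one was at 0.00 and 0.01 in these comparisons. Within 200 kb of Spink2, Kbtbd11 and Itm2a, the 7, 6 and 2 named genes had no probe called between differentiating clones and control iPSC by limma, with or without the array that stood apart. The further Kbtbd11 probe is among them.

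Other genes most alike over the 12 RNAs are given as a description, since all RNAs share the same arrays. They were Cntnap2, 4930550L24Rik and Ccno for Spink2 (r = 0.956 to 0.924), Rbm45 and Itga9 after Baz2b for Ly75 (0.918 and 0.911), and Irf8, Bhmt2 and Paip1 for Kbtbd11 (0.919 to 0.886). For Itm2a they were Krt7, Adcy7 and S100a16 (0.970 to 0.954), and for Igfbp2 Dnmt3a, Bdh2 and Paip1 (0.903 to 0.776). The Dnmt3a probe most like Igfbp2, A_52_P30497, was at 7.02 to 7.34 in deficient clones, 7.40 to 7.62 in differentiating clones, 8.09 to 8.73 in control lines and 8.54 in V6.5 ESC. Among the 6 genes, Serpina3m and Spink2 correlated at 0.82, Ly75 and Kbtbd11 at 0.79, and Spink2 and Igfbp2 at -0.82. The weakest pairs were Ly75 and Itm2a at 0.20 and Kbtbd11 and Itm2a at 0.25. The 12 RNAs include V6.5 ESC and the deficient clones, on which the members were chosen, so these correlations are not independent of that choice.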

How the data were processed

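The scanner files held, per the file headers, the mean spot intensity and the median local background intensity of each dye, extracted with Agilent Feature Extraction 10.1.1.1. The authors also deposited a table of log2 ratios for each array. Neither scale nor direction is stated there. Both were read from the values, which ran as clone over partner with a slope of 0.996 to 1.024 and a correlation of 0.975 to 0.999 against the ratios used here. Column medians were -0.011 to 0.0073. limma is named, without a version, in the submitters' processing notes.

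The starting point was the mean signals less local background. They were read with data.table, version 1.17.8, in R 4.3.3. In limma 3.58.1, normexp with an offset of 50 removed background, loess balanced the dyes of each array, and the Aquantile method brought the arrays to a common scale. The normexp parameters were fitted without the lowest 0.1% of spots of each channel, because a few spots with bright local background broke the usual fit on some arrays; 33 non-control spots with a net signal below -100 were left out. This change was made after the data had been seen, and the usual fit is given as an alternative. Outlier spots were left out (at most 0.447% of an array). Of 41174 probes, 36965 were kept, those that the scanner marked well above background in a share of 0.5 or more of the channels of some kind of RNA.

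A separate-channel fit with a dye term gave 1 level per RNA (intra-spot correlation 0.885). Line values were compared by limma, and V6.5 ESC and MEF by limma on the log ratios of 18 arrays with a dye term. All tests were two-sided; p-values were adjusted after Benjamini and Hochberg across the whole array, with 0.05 as the threshold for a call. Values after ± are SE. The number of lines and arrays limits the precision, and p-values measure only the spread between these samples. The fits were tested on simulated data that held no scan-day shift and no array like the one that stood apart.

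Every probe of the 6 genes is given. Of relatives, up to 2 called genes with the largest change were named, and all of lists of 3 or fewer; other relatives are examples chosen after their values were seen. Genes within 200 kb and the 3 most alike genes over 12 RNAs (SD of at least 0.5) were also named. Current names came through RefSeq by accession for 22107 kept probes, by symbol for 5737 and by synonym for 2697. The members, lists and tests were chosen with earlier results of these data known. Alternatives are listed in the closing section.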

Additional observations from a re-analysis of the deposited data

How the results depend on the processing

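The 1677 probes called between differentiating clones and control iPSC became 3432 without the array labelled clone 8 and control line 5, 12606 with arrays as units, 11918 with the replicate block and 12915 with the deposited value table. The last 3 treat arrays that reuse the same lines as independent; in them Itm2a, Igfbp2, Serpina3m, Spink2, Kbtbd11 and Ly75 A_51_P407351 all passed. The replicate number of the control arrays names the slide and its clone, so it does not pair lines; a fit of the same kind without the block called 12267. Leaving out 1 line gave 0 to 5213 calls by limma: 0 without clone A6, clone B2, control line 3 or control line 4 (5511, 6317, 6313 and 6140 at an unadjusted p under 0.05), and 5213 without control line 6. Against V6.5 ESC, 5006 probes were called, 1572 with normexp fitted on all spots, and 2394 to 4394 with 1 array left out (2394 without B2, 2435 without A6).

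With normexp fitted on all spots, V6.5 ESC was outside the iPSC range for 5 member probes instead of 7: the gaps of Spink2 and Itm2a closed to 0, and Kbtbd11 A_52_P570240 differed from V6.5 ESC by -1.85 and Ly75 A_52_P546030 by -0.28. With Agilent processed signals it was 7, and without normalization between arrays 8. Serpina3m passed between deficient and control iPSC without normalization between arrays (1.64, limma adjusted p = 0.0343), where Itm2a was at -0.60 in place of -0.98, called in both. Signs turned only for uncalled values: Kbtbd11 A_52_P570240 against MEF with processed signals (-0.019), and, between deficient and control iPSC, Kbtbd11 A_52_P180728 without between-array normalization (0.18) and Ly75 A_51_P407351 without the array that stood apart (-0.097). With 1 line left out these last 2 ran from -0.30 to 0.0928 and from -0.16 to 0.37. The cause was not tested.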
